A study of Mus musculus with 72 samples.

Results

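The comparison rests on 6 of the 60 LAM-HTGTS libraries of the series, which holds 72 samples with its 12 Repli-seq samples. In all 6 Cas9 cut chromosome 12 of mouse neural progenitor cells in the presence of ART558, an inhibitor of DNA polymerase theta, and in 3 of them the cells also received aphidicolin. The members are the libraries of the inhibitor collection with the chromosome 12 bait that are labelled aphidicolin plus ART558 (3 libraries) or ART558 (3 libraries). The cells are the Nxp010 line, NestinCre+Xrcc4-/-p53-/- progenitors derived from embryonic stem cells and labelled parental. All 6 libraries therefore come from 1 line, and nothing in the labels says that replicates were separate cultures, so the tests measure only the spread between these libraries. ART558 was given at 5 µM for 72 h and then at 2.5 µM for 24 h in both groups, and aphidicolin at 0.5 µM for 72 h and then at 0.25 µM for 24 h in 1 of them. A further 2 groups of the same bait without ART558, aphidicolin alone (2 libraries) and DMSO alone (2 libraries), and the same contrast with baits on chromosomes 6 and 8 are used only for comparison.

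LAM-HTGTS reads the DNA end to which a Cas9-made bait end was joined. A primer near the break copies the bait end and whatever follows it, so that each junction gives the prey position, the length of bait that was kept, the bases that fit both partners (microhomology) and any inserted bases. Xrcc4 is the partner of DNA ligase IV in classical end joining, and cells without it join ends by alternative routes. Polymerase theta is the main enzyme of one such route: it anneals resected ends at short microhomologies and fills them in, and ART558 blocks its polymerase activity. Aphidicolin inhibits the replicative polymerases, and at low dose it slows forks and breaks very long, late-replicating neural genes, which appear in these maps as recurrent DNA break clusters (RDCs). RDCs are divided by the replication timing of their locus into CTR (constant timing regions) and TTR (timing transition regions).

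The sequences at the break are shown because every measure of bait loss and microhomology below is read against them. The guide lies on the plus strand of GRCm38/mm10 at chr12:12994038-12994057, and Cas9 cuts after position 12994054. The site falls in Gm35208, annotated as a long intergenic non-coding RNA, and the nearest protein-coding gene is Mycn, a transcription factor of the Myc family, 52140 bp away on the bait side. The guide is given with its PAM in capitals, and the bait arm from the first base of the nested primer to the cut, 132 bp, with the part that belongs to the guide in capitals.
guide and PAM: attccgccaaccctcgagatAGG
bait arm: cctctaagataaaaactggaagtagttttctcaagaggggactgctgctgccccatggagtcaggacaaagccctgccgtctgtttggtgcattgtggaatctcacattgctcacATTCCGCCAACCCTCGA

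The aphidicolin plus ART558 libraries held 7639, 6864 and 12864 junctions, and the ART558 libraries 9677, 7151 and 8830. Of these, 5136, 4397 and 7446 against 5058, 3529 and 4607 lay on chromosomes other than 12. The read names place the 3 aphidicolin plus ART558 libraries on 1 sequencing run and the 3 ART558 libraries on another, so that run and treatment cannot be told apart with this bait. With 3 libraries against 3 the two-sided exact permutation test gives no p under 0.1, and none of the 26 measures compared can pass 0.05. A p of 0.1 therefore means that the 2 groups of libraries did not overlap. This was so for 16 of the 26 measures, and the adjusted p of those 16 was 0.163 (Benjamini-Hochberg over the 26).

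With aphidicolin on top of ART558, a larger share of the junctions led away from the break and a smaller share were short deletions across it. All classes are shares of the same total, so a fall in the deletions up to 10 kb by itself raises the shares of the other classes. Whether junctions on other chromosomes rose beyond this was not tested. Junctions on other chromosomes made up 67.2%, 64.1% and 57.9% of the aphidicolin plus ART558 libraries and 52.3%, 49.3% and 52.2% of the ART558 libraries. Deletions under 200 bp, in which the bait end is joined to the other end of the same break after a small loss, made up 6.05%, 7.36% and 6.61% against 15.4%, 19.2% and 16.9%. Deletions of 200 bp to 10 kb made up 1.71%, 2.11% and 2.92% against 10.8%, 11.6% and 11.2%. In all 3 classes the groups did not overlap.

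As group means, the share on other chromosomes was 63.1% ± 4.76 (SD, n = 3) against 51.3% ± 1.66 (n = 3, exact permutation p = 0.1). Deletions under 200 bp were 6.67% ± 0.657 against 17.2% ± 1.90, a ratio of 0.389 (n = 3 each, exact permutation p = 0.1). Deletions of 200 bp to 10 kb were 2.25% ± 0.611 against 11.2% ± 0.396, a ratio of 0.2002 (n = 3 each, exact permutation p = 0.1). The counting interval of any class share in any of the 6 libraries (95%, Wilson) was at most 1.16 percentage points to either side. Reads carry no molecular identifiers, so intervals cover counting error only. When each prey position and strand was counted once per library, which caps the class under 200 bp at the number of positions it holds, the difference was -0.83 percentage points for deletions under 200 bp, 4.91 for other chromosomes and -9.31 for deletions of 200 bp to 10 kb, each still without overlap.

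**Figure D1:**
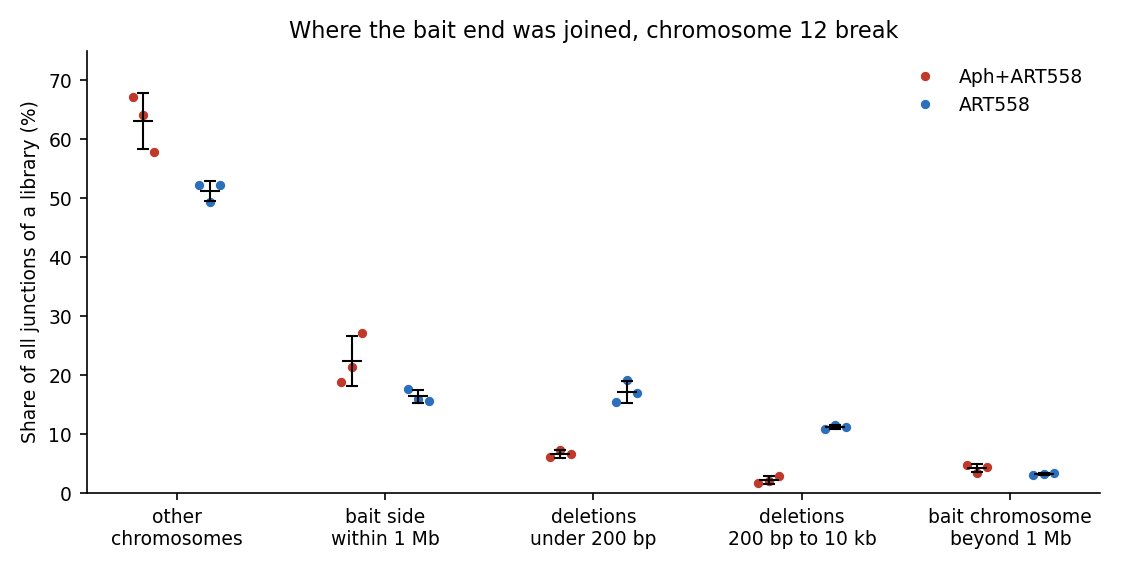
Share of all junctions of a library (%, y axis) in 5 classes (x axis) for the 3 aphidicolin plus ART558 (Aph+ART558) and the 3 ART558 libraries of the chromosome 12 break; points are libraries, bars the mean and SD. Deletions under 200 bp lie at 6.05% to 7.36% with aphidicolin and at 15.4% to 19.2% without.

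The other classes were small except for the bait side. Deletions of 10 kb to 1 Mb were 0.314%, 0.583% and 0.451% against 0.269%, 0.224% and 0.294%, so the share of these longest deletions was higher with aphidicolin (0.449% ± 0.134 against 0.262% ± 0.0358) and that of the shorter ones lower. Junctions on the bait chromosome more than 1 Mb from the cut were 4.84%, 3.44% and 4.47% against 3.14%, 3.26% and 3.39%. Inverted junctions within 1 Mb past the break were rare in both groups, at 0.327%, 0.437% and 0.396% against 0.176%, 0.294% and 0.215%. Junctions on the bait side of the break within 1 Mb were 18.9%, 21.3% and 27.1% against 17.6%, 16.0% and 15.6%. Each of these 4 classes was without overlap between the groups (n = 3 each, exact permutation p = 0.1). As shares of the same total, these classes also rise when the shorter deletions fall, and a rise beyond that was not tested. With each position counted once, all but the bait-side class overlapped. Without aphidicolin plus ART558 replicate 2 the difference in deletions of 10 kb to 1 Mb was 0.1202 percentage points instead of 0.187, and without replicate 3 that of the bait side was 3.68 instead of 6.01.

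Resolved by distance, the ratio of deletions between the groups was lowest from 200 to 1000 bp, while the difference per 1000 junctions was largest up to 50 bp from the cut (50.96 ± 5.12 against 119 ± 14.6). From 200 to 500 bp past the cut there were 1.70, 3.06 and 2.33 deletions per 1000 junctions with aphidicolin plus ART558 and 18.4, 21.5 and 20.6 with ART558, a ratio of 0.117. From 500 to 1000 bp the ratio was 0.144. It was then 0.175 at 1000 to 2000 bp, 0.259 at 2000 to 5000 bp and 0.502 at 5000 to 10000 bp, and close to the cut it was 0.428 up to 50 bp and 0.300 at 50 to 200 bp. From 10000 bp on the libraries of the groups overlapped in every distance bin. Within the class under 200 bp, the junctions with 0 to 10 bp of microhomology had a median deletion of 60, 62 and 64.5 bp with aphidicolin and 72, 72 and 71 bp without.

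On the bait side, most junctions were inverted, that is, the prey ran opposite to the bait, and with aphidicolin these lay farther from the cut. Under 1 kb from the cut they numbered 41.8, 50.3 and 55.4 per 1000 junctions against 66.4, 51.04 and 57.5, with overlap, and of these only 1, 1 and 3 against 2, 0 and 4 junctions lay between 50 and 200 bp. From 1 to 10 kb they numbered 102, 123 and 169 against 85.7, 80.3 and 69.8. From 10 to 100 kb they numbered 10.7, 10.6 and 14.9 against 3.62, 2.94 and 2.72, and from 100 kb to 1 Mb 3.67, 3.35 and 3.65 against 0.930, 0.979 and 1.36. The last 3 distance classes were without overlap, and the ratio of means was 1.67, 3.91 and 3.27 in turn. Without aphidicolin plus ART558 replicate 3, the difference at 1 to 10 kb was 33.9 per 1000 instead of 52.8. Within 1 to 10 kb the ratio was 1.08 at 1000 to 2000 bp, where libraries overlapped, 2.29 at 2000 to 5000 bp and 3.88 at 5000 to 10000 bp.

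**Figure D2:**
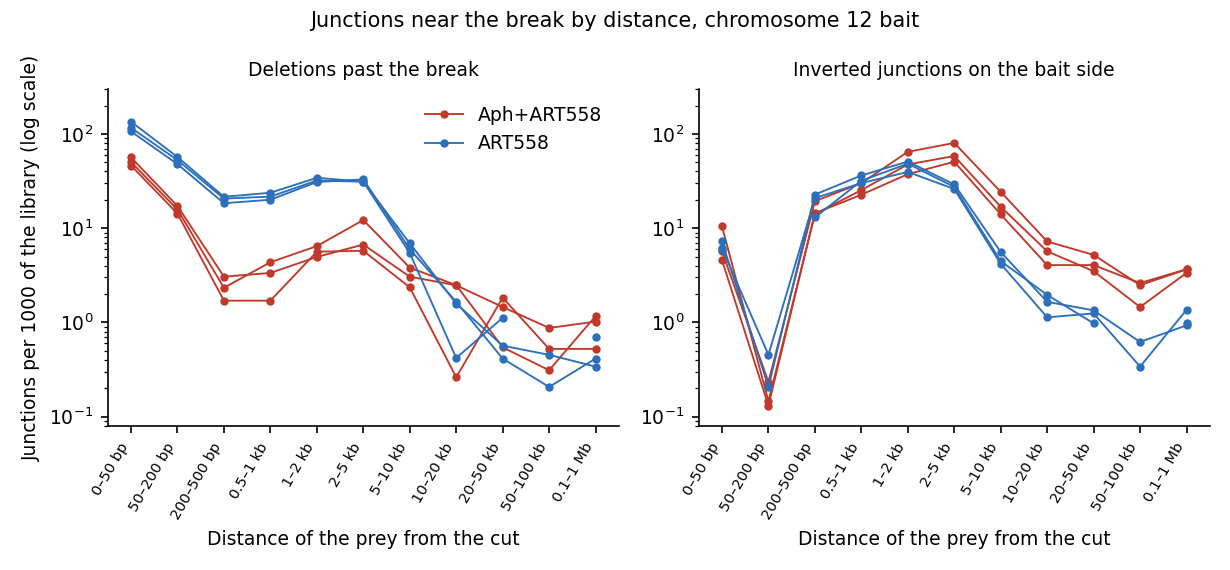
Junctions per 1000 of the library (log scale, y axis) by distance of the prey from the cut (x axis, 11 bins of unequal width) for deletions past the break (left) and inverted junctions on the bait side (right); each line is 1 library, and a library without a junction in a bin has no point there. Deletions lie lower with aphidicolin up to 10 kb, and inverted junctions lie higher from 2 kb on.

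Short deletions had more microhomology with aphidicolin. Among deletions under 200 bp with 0 to 10 bp of microhomology, 38.3%, 33.9% and 32.3% had 3 bp or more with aphidicolin plus ART558 and 25.5%, 26.3% and 27.0% with ART558 (274, 295 and 468 against 775, 761 and 834 junctions). Mean microhomology of these deletions was 2.23, 2.18 and 2.03 bp against 1.78, 1.86 and 1.89 bp, again without overlap. Among deletions of 200 bp to 10 kb the groups overlapped, with means of 2.60, 2.89 and 2.76 bp against 2.82, 2.84 and 2.75 bp.

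The 3 deletion products with the most junctions over the 6 libraries are shown because they make the microhomology visible. Each line gives 20 bases before the deletion, the bases that fit both ends in capitals, and 20 bases after it, on the plus strand of GRCm38/mm10.
product with a 45 bp deletion: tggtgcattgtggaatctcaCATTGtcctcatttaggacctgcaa
product with a 60 bp deletion: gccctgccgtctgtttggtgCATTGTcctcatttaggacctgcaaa
product with a 51 bp deletion: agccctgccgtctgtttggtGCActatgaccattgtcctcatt
The first joins bait base 12994027 to prey base 12994073 and was found 3, 4 and 5 times with aphidicolin plus ART558 and 3, 4 and 5 times with ART558. The second shares its prey base with the first and was found 4, 1 and 5 times against 2, 2 and 7 times. The third was found 4, 3 and 3 times against 3, 3 and 3 times. No single product was seen more than 7 times in a library. The number of different products was 211, 237 and 344 among the 274, 295 and 468 junctions with aphidicolin, and 689, 646 and 663 among the 775, 761 and 834 junctions without.

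Translocations and other junctions more than 1 Mb from the cut also had longer microhomology when aphidicolin was present. Mean microhomology length, over junctions with 0 to 10 bp, was 2.07, 2.02 and 2.02 bp with aphidicolin plus ART558 and 1.86, 1.77 and 1.76 bp with ART558 (2.04 ± 0.0273 against 1.80 ± 0.0582, n = 3 each, exact permutation p = 0.1). Long microhomologies took a larger share with aphidicolin. Those of 5 to 10 bp made up 14.9%, 13.3% and 14.2% against 12.03%, 11.2% and 10.9%, without overlap. Taken singly, those of 6, 7, 9 and 10 bp did not overlap either, as with 7 bp at 2.65%, 2.34% and 2.40% against 1.60%, 1.73% and 1.38%. Those of 5 bp (3.98%, 3.87% and 3.89% against 4.35%, 3.98% and 3.77%) and of 8 bp (1.88%, 1.22% and 1.98% against 1.42%, 1.34% and 1.31%) overlapped. Junctions with more than 10 bp, which this measure leaves out, were 5.99%, 4.75% and 5.41% against 4.51%, 2.79% and 4.42% of all junctions at this distance, a difference of 1.48 percentage points that was 0.916 without ART558 replicate 2. Within 1 Mb of the break, mean microhomology differed by 0.0255 bp only (exact permutation p = 0.9, n = 3 each).

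Direct joins and microhomologies of 1 to 3 bp overlapped between the groups, and those of 4 bp did not. Direct joins, with no shared and no inserted base, made up 35.5%, 33.5% and 36.1% against 35.8%, 37.7% and 38.2% (35.1% ± 1.36 against 37.3% ± 1.25, n = 3 each, exact permutation p = 0.2). Microhomology of 1 bp was 19.2%, 20.4% and 18.5% against 19.8%, 20.8% and 20.5%. Microhomology of 2 bp was 14.2%, 15.05% and 14.8% against 16.4%, 14.8% and 15.1%, and that of 3 bp was 10.2%, 11.2% and 10.4% against 10.4%, 9.63% and 9.72%. Microhomology of 4 bp was 5.93%, 6.56% and 5.96% against 5.53%, 5.86% and 5.60%, and that of 2 to 4 bp together was 31.4% ± 1.27 against 31.0% ± 1.14, with overlap. Insertions were found in 10.97%, 12.1% and 11.5% against 11.5%, 9.70% and 10.0% of the junctions, with overlap. Insertions of 1 to 9 bp were 6.43%, 6.99% and 6.10% against 6.06%, 5.45% and 4.57%, without overlap (difference 1.148 percentage points, 0.751 without ART558 replicate 3, and 0.106 among junctions within 1 Mb of the break), and insertions of 10 bp or more were 5.00% ± 0.433 against 5.04% ± 0.685.

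The bait ends were deeply shortened in both groups. Bait length, counted from the first primer base to the last base kept, averaged 77.2, 79.2 and 77.6 bp with aphidicolin plus ART558 and 76.9, 75.9 and 75.1 bp with ART558, out of 132 bp (78.0 ± 1.09 against 76.0 ± 0.885, n = 3 each, exact permutation p = 0.1). The medians, 73, 75 and 73 against 73, 72 and 72 bp, overlapped, as did the means with each position counted once. The share of bait ends that lost 20 bp or more was 90.5%, 89.2% and 89.4% against 88.8%, 87.6% and 89.5%, with overlap. The losses were less spread out with aphidicolin. Losses of 60 to 79 bp made up 31.0%, 31.7% and 30.6% against 26.2%, 25.3% and 25.5%, and losses of 80 bp or more 18.5%, 14.3% and 17.9% against 22.7%, 26.8% and 26.3%. No junction in these tables keeps fewer than 37 bp of bait, so larger losses are not seen.

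**Figure D3:**
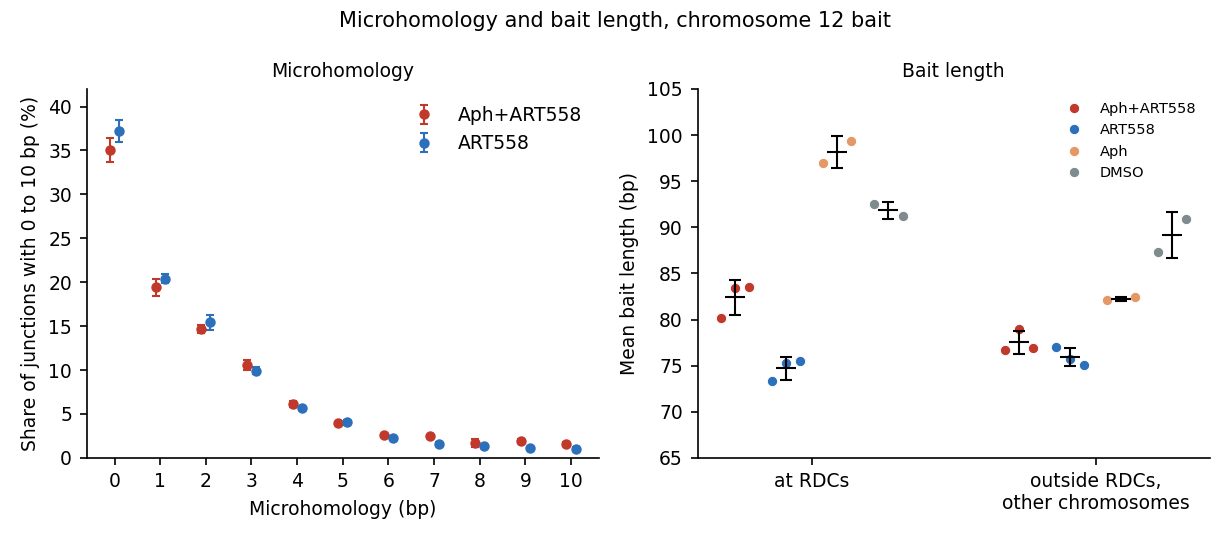
Left, microhomology length (bp, x axis) against share of junctions with 0 to 10 bp (%, y axis), mean and SD of 3 libraries a group; right, mean bait length (bp, y axis, starting at 65) at RDCs and on other chromosomes outside RDCs, points are libraries and bars mean and SD, with the 2 aphidicolin (Aph) and 2 DMSO libraries added. At RDCs the 3 aphidicolin plus ART558 libraries lie between 80.2 and 83.5 bp and the 3 ART558 libraries between 73.3 and 75.5 bp.

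The RDC list holds 107 clusters, 42 CTR and 65 TTR, of which 103 (39 CTR and 64 TTR) are not on chromosome 12. The list comes from the study's supplement and rests on aphidicolin-treated cells, so that a higher density with aphidicolin is built into the choice of loci. Density was counted as junctions per Mb for every 1000 junctions on other chromosomes (JPTM), in windows of 1 Mb. CTR density was 0.609, 0.601 and 0.689 JPTM with aphidicolin plus ART558 and 0.304, 0.509 and 0.417 JPTM with ART558 (0.633 ± 0.0486 against 0.410 ± 0.102, n = 3 each, exact permutation p = 0.1). TTR density was 0.508, 0.416 and 0.525 against 0.513, 0.456 and 0.512 JPTM, with overlap (exact permutation p = 0.8, n = 3 each). Over gene bodies instead of 1 Mb windows, the TTR difference was -0.0819 JPTM instead of -0.0108, without overlap (exact permutation p = 0.1). Outside RDCs it was 0.398, 0.404 and 0.396 against 0.407, 0.402 and 0.404 JPTM. CTR RDCs thus lay above non-RDC sequence in every aphidicolin plus ART558 library and, of the ART558 libraries, in replicates 2 and 3. The CTR difference of 0.223 JPTM was 0.363 in windows of 0.5 Mb and 0.0812 in windows of 2 Mb, without overlap in either.

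The log2 ratio of RDC to non-RDC density was 0.46, 0.27 and 0.57 with aphidicolin plus ART558 and 0.09, 0.24 and 0.24 with ART558, without overlap, but overlapped in windows of 0.5 and 2 Mb and over gene bodies (differences of 0.40, 0.08 and 0.09). Bodies of protein-coding genes of 500 kb or more held 0.472, 0.516 and 0.513 against 0.406, 0.406 and 0.381 JPTM, and sequence outside annotated genes 0.348, 0.352 and 0.349 against 0.352, 0.361 and 0.362 JPTM. The long genes were without overlap (0.500 ± 0.0243 against 0.398 ± 0.0146, n = 3 each, exact permutation p = 0.1), and overlapped when genes from 300 kb on were taken (difference 0.0382 instead of 0.103 JPTM). Intergenic sequence overlapped between the groups (ratio 0.976).

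Of the 4 bins nearest the centres of CTR RDCs, the mean density differed most in the 2 next to the centre. In the 250 kb just before the centre of CTR RDCs the density was 0.871 ± 0.167 JPTM with aphidicolin plus ART558 and 0.367 ± 0.114 with ART558 (n = 3 each), and in the 250 kb just after it 0.727 ± 0.0241 against 0.506 ± 0.268. The groups did not overlap in the bin before the centre and overlapped in the bin after it, since ART558 replicate 2 held 0.814 there, against 0.739, 0.700 and 0.744 with aphidicolin plus ART558. In the next 250 kb outwards the values were 0.474 ± 0.0905 against 0.383 ± 0.0805 on one side and 0.459 ± 0.0316 against 0.385 ± 0.0529 on the other, with overlap before the centre and none after it. In the bins beyond, the aphidicolin plus ART558 mean ranged from 0.263 to 0.365 and the ART558 mean from 0.277 to 0.469.

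**Figure D4:**
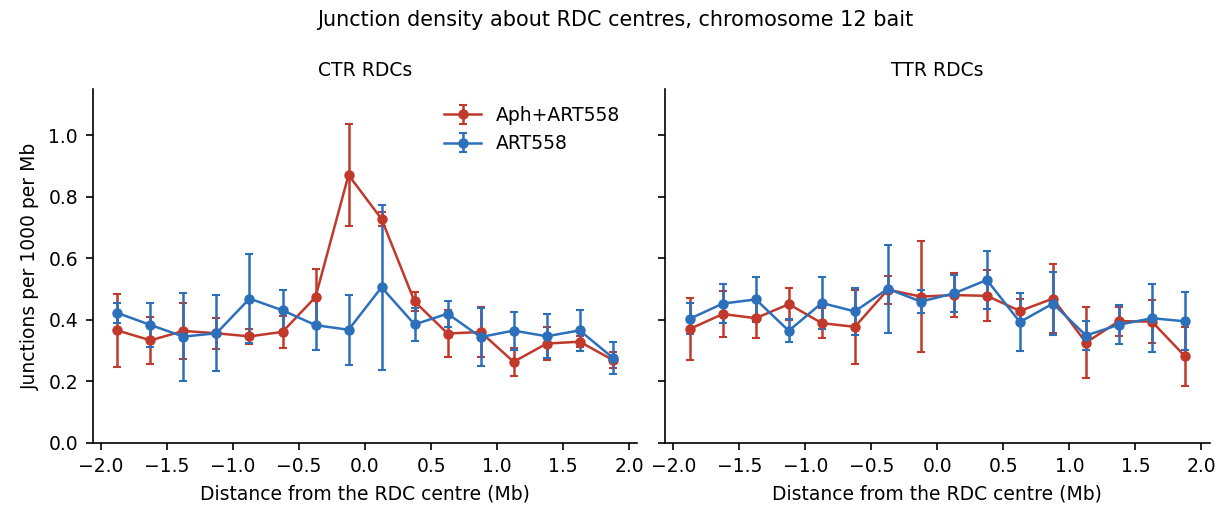
Junctions per 1000 per Mb (y axis) in bins of 250 kb by distance from the centre of the RDC (Mb, x axis) for 39 CTR (left) and 64 TTR (right) RDCs on other chromosomes; points and bars are the mean and SD of 3 libraries a group. The density with aphidicolin plus ART558 reaches 0.871 next to the centre of CTR RDCs, where ART558 alone gives 0.367.

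Among single RDCs, 12 of the 103 had all 3 aphidicolin plus ART558 libraries above all 3 ART558 libraries, which is 11.7%, against 4.5% of the 2447 1 Mb tiles of the other chromosomes. In windows of 0.5 Mb the count was 6 of 103, against 3.31% of the central 0.5 Mb of the tiles. There were 4 of the 103, or 3.88%, below, against 4.86% of the tiles. By class, 7 of 39 CTR RDCs were above and 1 below, and 5 of 64 TTR RDCs were above and 3 below. The mean density was higher in 27 of 39 CTR RDCs and in 28 of 64 TTR RDCs, against 47.9% of all tiles. The counts per RDC are small, with a median of 15 junctions over the 6 libraries, and a tile held a median of 12.

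Nrg3, which encodes a neuregulin that signals through ErbB4 receptors, was the RDC with the most junctions and the largest difference in density. Of the CTR class, its window, chr14:38400001-39400000, held 13, 11 and 14 junctions with aphidicolin plus ART558 and 1, 2 and 3 with ART558, or 2.30 ± 0.368 against 0.472 ± 0.241 JPTM (n = 3 each). Every library with aphidicolin held more Nrg3 junctions than the 3 without it together. Erbb4, the gene of the receptor, did not share this, with 3, 0 and 1 against 2, 0 and 2 junctions. With the other baits, whose libraries were not used to call it above here, although the study also names this gene, the Nrg3 window held 2, 7 and 1 against 2, 1 and 0 junctions for chromosome 6, and 7 and 7 against 0 and 2 for the chromosome 8 libraries of at least 1000 junctions. The libraries differ in depth, and the mean densities were 0.830 against 0.454 JPTM with chromosome 6 and 1.65 against 0.726 JPTM with chromosome 8. With chromosome 6 the densities of the groups overlapped, and the higher mean rests mostly on the library with 7 junctions.

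Naaladl2, a relative of glutamate carboxypeptidase II, followed with 8, 6 and 14 against 2, 3 and 4 junctions (1.60 ± 0.261 against 0.705 ± 0.268 JPTM). Its neighbour on chromosome 3, Nlgn1, encodes the postsynaptic adhesion protein neuroligin 1 and held 1, 2 and 7 junctions against 0 in each ART558 library. Since 3 junctions over the ART558 group would be 0.227 JPTM, Nlgn1 was at least 2.33-fold higher with aphidicolin in these libraries, by which it was chosen. This bound rests mostly on aphidicolin plus ART558 replicate 3, which held 7 of the 10 junctions, and would be lower without it. With the other baits the mean density of Nlgn1 was lower with aphidicolin plus ART558. It was 0.180 against 0.285 JPTM with chromosome 6 and 0.598 against 0.667 JPTM with chromosome 8. Nkain2, which encodes a protein that interacts with the sodium pump, held 6, 6 and 8 against 2, 2 and 1 junctions (1.202 ± 0.148 against 0.393 ± 0.175 JPTM).

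Prkg1, a cyclic GMP-dependent protein kinase, held 5, 3 and 10 against 2, 1 and 1 junctions. Agbl4, a carboxypeptidase that trims glutamate side chains of tubulin, held 7, 2 and 8 against 2, 1 and 0. Dock1, an activator of the small GTPase Rac, held 6, 6 and 5 against 1, 1 and 1. It is of the TTR class, as are Ctnnd2 and Adgrv1. Ctnnd2, which encodes delta-catenin, held 5, 4 and 2 against 1, 0 and 0 junctions, and Adgrv1, a very large adhesion receptor, 6, 3 and 5 against 0, 1 and 2. The other 3 RDCs above, Rbms3, Pcdh15 and Ank2, had smaller differences and held 5 to 14 junctions in all. Rbms3 and Ank2 were named after their values were seen. Of the 12 RDCs above, 9 had a higher mean with the chromosome 6 bait and 5 with the chromosome 8 bait. The 3 with a lower mean with chromosome 6, Nlgn1, Dock1 and Adgrv1, had a lower mean with chromosome 8 too.

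Of the 4 RDCs in which the aphidicolin plus ART558 libraries lay wholly below, 3 are given. Csmd2, a transmembrane protein with complement-like domains, held 1, 1 and 3 junctions with aphidicolin plus ART558 and 5, 4 and 5 with ART558 (0.275 ± 0.112 against 1.07 ± 0.0738 JPTM). Sox5, a transcription factor of neural development, held 0, 1 and 1 against 4, 2 and 2 junctions, and was the only CTR RDC in this direction. With the chromosome 6 bait, on whose chromosome Sox5 lies, its window went the other way, with 7, 12 and 14 against 0, 1 and 3 junctions. The chromosome 8 libraries of at least 1000 junctions held 2 and 0 against 1 and 2. Sox6, a relative of Sox5, held 2, 2 and 3 against 4, 2 and 3.

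**Figure D5:**
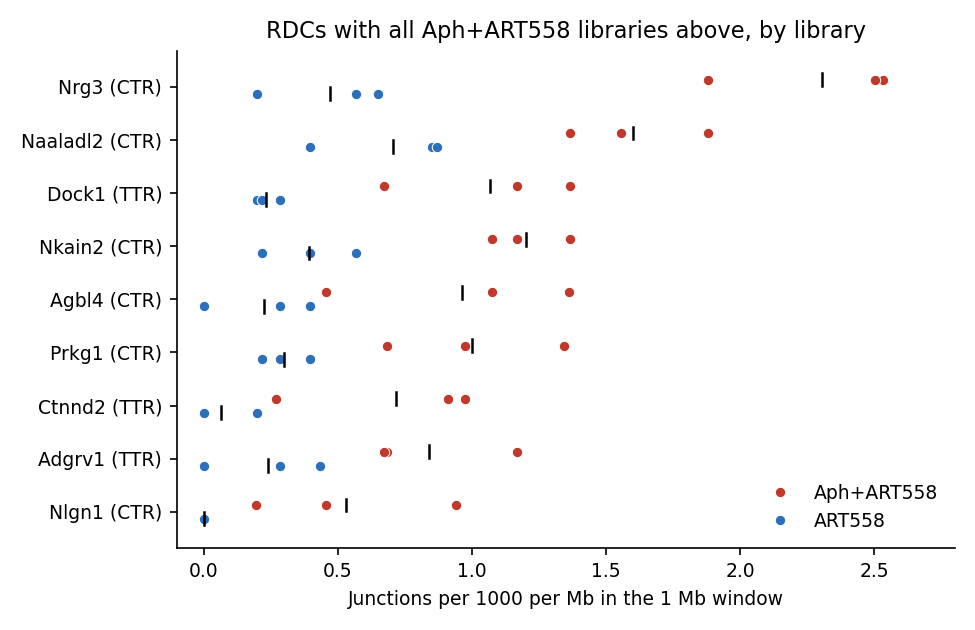
Junctions per 1000 per Mb in the 1 Mb window (x axis) of the 9 named RDCs with all aphidicolin plus ART558 libraries above all ART558 libraries (y axis, with their class); points are the 3 libraries of each group, black ticks their means. Nrg3 lies between 1.88 and 2.53 with aphidicolin plus ART558 and Nlgn1 at 0 in each ART558 library; these RDCs were chosen by these values.

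Several well-known RDCs did not separate the groups with the chromosome 12 bait. Ctnna2, which encodes the neuronal alpha-catenin, held 1, 7 and 5 junctions with aphidicolin plus ART558 and 2, 3 and 9 with ART558. Magi2, a synaptic scaffold, held 0, 6 and 12 against 0, 4 and 4. Auts2, a nuclear regulator of neural development, held 3, 3 and 12 against 6, 0 and 3, and Dpp10, a subunit of potassium channels, 3, 6 and 9 against 3, 2 and 3. The fragile site genes Wwox (2, 1 and 2 against 3, 1 and 0) and Ccser1 (2, 1 and 6 against 0, 3 and 3) and Large, a glycosyltransferase of dystroglycan (6, 4 and 2 against 6, 1 and 3), likewise overlapped.

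The RDC genes were also counted by family. Of 8 RDCs in genes of synaptic scaffolds and cell polarity, none had non-overlapping libraries and 2 had a higher mean (median difference -0.0979 JPTM). Of 9 RDCs on other chromosomes in immunoglobulin and synaptic adhesion and guidance genes, Nlgn1 was above, none was below and 4 had a higher mean. Of 4 adhesion GPCRs, Adgrv1 was above and 3 had a higher mean. Of 6 RDCs of the dystrophin complex, none had non-overlapping libraries and 4 had a higher mean (median difference 0.164 JPTM). Of 7 transcription factors, 2 were below (Sox5 and Sox6) and 3 had a higher mean, and of 5 receptor tyrosine phosphatases and 4 glutamate receptors none had non-overlapping libraries. Of 5 protocadherin and cadherin RDCs Pcdh15 was above and 2 had a higher mean, of 3 CSMD genes Csmd2 was below and 2 had a higher mean, and of 2 catenins Ctnnd2 was above and Ctnna2 had a lower mean. Of 4 fragile site genes on other chromosomes none had non-overlapping libraries and 3 had a higher mean. Of all 103 RDCs, 11.7% were above, 3.88% below and 53.4% had a higher mean, against 4.5%, 4.86% and 47.9% of tiles. The median difference over all 103 RDCs was 0.0359 JPTM and over all tiles -0.0107 JPTM. Each family holds too few RDCs to be set apart from these shares and medians by its counts.

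The remaining 4 RDCs lie on chromosome 12 itself and were counted per 1000 bait-chromosome junctions more than 1 Mb from the cut. Klhl29, which encodes a Kelch-like protein, held 4, 11 and 16 junctions against 1, 1 and 4, or 28.4 ± 17.9 against 6.99 ± 5.56 per 1000 (n = 3 each), with overlap. Hdac9, a histone deacetylase, held 1, 1 and 8 against 1, 2 and 2 junctions. Immp2l, a mitochondrial inner membrane peptidase in a common fragile site, held 5, 0 and 5 against 1, 5 and 1, and Mdga2, an adhesion protein that binds neuroligins, 3, 1 and 12 against 5, 4 and 3. All 4 overlapped between the groups. In the aphidicolin libraries without ART558, Hdac9 held 43.8 and 27.7 per 1000 against 15.4 and 7.99 with DMSO, and Immp2l 39.4 and 41.6 against 5.14 and 3.99 per 1000. Klhl29 held 20.4 and 18.03 against 15.4 and 13.3 per 1000, also apart, and Mdga2 16.1 and 15.3 against 15.4 and 7.99 per 1000, with overlap.

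Bait ends joined to RDCs were longer with aphidicolin plus ART558 than with ART558. At RDCs the bait was kept to 80.2, 83.5 and 83.5 bp with aphidicolin plus ART558 and to 73.3, 75.3 and 75.5 bp with ART558 (82.4 ± 1.90 against 74.7 ± 1.23, n = 3 each, exact permutation p = 0.1). On other chromosomes outside RDCs it was 76.7, 78.97 and 76.9 against 77.0, 75.8 and 75.02 bp, with overlap. Bait at RDCs was thus 3.52, 4.49 and 6.60 bp longer than outside them in the 3 libraries with aphidicolin, while the same difference was -3.72, -0.50 and 0.51 bp in the 3 without. Direct joins at RDCs made up 34.5%, 31.9% and 28.2% against 39.2%, 38.1% and 43.8% (31.5% ± 3.14 against 40.4% ± 3.07, n = 3 each, exact permutation p = 0.1), while outside RDCs they were 35.5%, 33.9% and 36.9% against 35.5%, 37.4% and 37.7%. In windows of 2 Mb the difference in direct joins was -3.95 instead of -8.85 percentage points, with overlap. The bait lengths at RDCs rest on 220 to 450 junctions a library with aphidicolin and 173 to 226 without. The direct joins at RDCs rest on 238, 182 and 344 junctions with aphidicolin and 189, 155 and 203 without.

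The strand of the prey at CTR RDCs varied among libraries of either group. Before the centre of the windows, 50.8%, 31.5% and 36.4% of the junctions with aphidicolin plus ART558 were on the plus strand (63, 54 and 110 junctions), and after the centre 57.6%, 49.0% and 57.8% (59, 49 and 90). With ART558 the shares were 57.1%, 50% and 46.2% before it (16, 14 and 18 plus, 12, 14 and 21 minus). They were 43.8%, 54.8% and 36.1% after it (14, 23 and 13 plus, 18, 19 and 23 minus). The plus share was higher after the centre in 3 of 3 libraries with aphidicolin and in 1 of 3 without. These shares rest on few junctions, and the contrast was not tested.

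Without ART558, 6 of the 7 junction classes differed between aphidicolin and DMSO in the same direction as between aphidicolin plus ART558 and ART558, and the inverted junctions past the break in the opposite one (-3.24 against 0.159 percentage points). Here too the classes are shares of the same total, so their directions are not independent of each other. Deletions of 200 bp to 10 kb were 23.9% and 21.6% with aphidicolin and 44.4% and 48.4% with DMSO, all on the run of the ART558 libraries. Junctions on other chromosomes were 38.9% and 40.2% against 18.8% and 14.8%, and inverted bait-side junctions at 10 to 100 kb were 14.9 and 13.0 against 2.14 and 3.67 per 1000. CTR density was 1.07 and 0.926 against 0.371 and 0.346 JPTM. The aphidicolin effect on CTR density was 0.223 JPTM with ART558 and 0.640 JPTM without, a difference of -0.418 (exact permutation of labels within inhibitor strata, p = 0.333 over 120 arrangements). Exchange of labels within strata assumes no aphidicolin effect in either setting, so its p does not test whether the effects are equal. TTR density was 0.795 and 0.686 with aphidicolin alone and 0.495 and 0.437 with DMSO, and the aphidicolin effect on it was -0.0108 JPTM with ART558 and 0.275 without (exact permutation p = 0.133).

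Some joining measures differed in opposite directions with and without ART558. Mean microhomology was 0.244 bp longer with aphidicolin under ART558 and 0.216 bp shorter without it, where it was 2.21 and 2.19 bp with aphidicolin and 2.42 bp in both DMSO libraries (difference of effects 0.460 bp, exact permutation p = 0.0167, adjusted p = 0.144 over 26 measures). Mean bait length was 2.03 bp longer with aphidicolin under ART558 and 6.03 bp shorter without it (difference 8.07 bp, exact permutation p = 0.0167, adjusted p = 0.144). At RDCs, bait was longer with aphidicolin in both settings, by 7.70 bp with ART558 and by 6.30 bp without. None of these differences of effects held after adjustment, and their p, as above, does not test whether the effects are equal. The aphidicolin plus ART558 libraries are the only ones of these 4 groups on their run, which cannot be told apart from the difference of effects.

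With the chromosome 6 bait, where both groups (3 libraries each) share 1 run, the same contrast gave deletions of 200 bp to 10 kb of 6.81%, 7.02% and 4.75% against 13.4%, 7.77% and 17.7%, without overlap. Inverted bait-side junctions at 10 to 100 kb were 21.3, 20.6 and 12.4 against 4.53, 2.12 and 7.81 per 1000, also without overlap. Deletions under 200 bp (13.0%, 12.3% and 11.7% against 22.7%, 10.4% and 20.8%), junctions on other chromosomes (46.6%, 45.7% and 55.5% against 38.0%, 65.2% and 34.7%) and CTR density (0.542, 0.636 and 0.412 against 0.456, 0.305 and 0.449 JPTM) overlapped there, and replicate 2 of ART558 stood apart in the first 2. Mean microhomology (1.89, 1.86 and 2.03 against 2.07, 1.64 and 1.85 bp) and bait length at RDCs (76.2, 74.5 and 76.0 against 72.9, 80.3 and 73.7 bp) overlapped as well.

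Over the chromosome 6, 8 and 12 baits, with labels exchanged within baits (2400 arrangements), deletions of 200 bp to 10 kb were 7.79 percentage points lower with aphidicolin plus ART558 (exact permutation p = 0.000833, adjusted p = 0.00722 over 26 measures). CTR density was 0.201 JPTM higher (exact permutation p = 0.0025, adjusted p = 0.0144), and bait-side junctions were 5.27 percentage points higher (exact permutation p = 0.0108, adjusted p = 0.0402). Junctions on other chromosomes were 10.8 percentage points higher, which did not hold after adjustment (exact permutation p = 0.0325, adjusted p = 0.106). This share and that of the bait side belong to the same total as the deletions, and neither was tested apart from the fall in deletions. TTR density differed by 0.0164 JPTM (exact permutation p = 0.914), mean microhomology by 0.0779 bp (exact permutation p = 0.213) and bait length at RDCs by 0.339 bp (exact permutation p = 0.854). The latter 2 means are made of differences of opposite sign. With chromosome 8, bait length at RDCs was 84.5 and 82.98 bp with aphidicolin plus ART558 and 90.4 and 90.3 bp with ART558 (-6.57 bp, against 7.70 bp with chromosome 12), on 240 and 237 against 41 and 38 junctions. Mean microhomology with that bait was 1.93 and 1.91 against 1.94 and 2.07 bp (-0.0853 bp, against 0.244 bp with chromosome 12). For each of the 26 measures the difference between the chromosome 12 and the chromosome 6 effect had an exact permutation p of 0.06 or more, and the lowest, 0.06, was that of bait length at RDCs (7.82 bp). That test assumes no effect with either bait, so its p does not test whether the effects are equal. The chromosome 12 libraries of the 2 groups lie on different runs, and those of chromosome 6 share 1 run. With chromosome 8, ART558 replicate 3 was left out of the tests for its 133 junctions. Aphidicolin plus ART558 replicates 2 and 3 of that bait lie on another run than the ART558 libraries. Aphidicolin plus ART558 replicate 1 shares the run of ART558 but was left out of the tests for its 949 junctions.

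That chromosome 8 library, which has aphidicolin and the run of the ART558 libraries, lay below both ART558 libraries of at least 1000 junctions for deletions of 200 bp to 10 kb and above both for CTR density, and between them for the share on other chromosomes, mean bait length and mean microhomology. Its deletions of 200 bp to 10 kb made up 9.38%, against 15.8% and 12.2% in ART558 replicates 1 and 2 and 6.48% and 6.27% in aphidicolin plus ART558 replicates 2 and 3. Its CTR density was 0.983 JPTM on 13 junctions, against 0.444 and 0.410 in the ART558 libraries and 0.562 and 0.802 in the other 2. Its share of junctions on other chromosomes, 35.7%, lay between the 31.6% and 43.4% of the ART558 libraries and below the 53.5% and 56.1% of the other 2. Its mean bait length was 90.6 bp, between the 90.4 and 91.1 bp of ART558 and above 83.5 and 84.1 bp. Bait length at RDCs was 87.8 bp on 25 junctions, and mean microhomology was 2.04 bp, between the ART558 values, so that the microhomology groups of this bait are apart only without this library. With it in the test over the 3 baits, deletions of 200 bp to 10 kb differed by -7.45 percentage points (exact permutation p = 0.00025), CTR density by 0.235 JPTM (exact permutation p = 0.0035) and other chromosomes by 8.66 percentage points (exact permutation p = 0.0743). ART558 replicate 3 of this bait, with 133 junctions on the same run, lay on the other side of it in both measures. Its deletions of 200 bp to 10 kb were 4.51% on 6 junctions, and its CTR density was 3.66 JPTM on 4.

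Some prey positions recurred in several libraries. On other chromosomes, 7 sites held at least 10 junctions of at least 2 libraries with gaps of at most 100 bp, 3 on chromosome 2, 3 on chromosome 14 and 1 on chromosome 9. The one with the most, chr2:98666238-98667332, held 51, 57 and 51 junctions with aphidicolin plus ART558 and 45, 5 and 62 with ART558. Compared with the guide, the best match followed by NGG near any of the 7 sites had 11 mismatches or more of 20. Together they took 2.38%, 3.07% and 1.77% of the junctions on other chromosomes against 1.90%, 0.283% and 2.65%, and ART558 replicate 2 was the lowest of its group at each of the 7. Leaving them out turned none of the 26 differences.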

How the data were processed

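LAM-HTGTS junctions of 6 libraries were compared, and 16 further libraries were read for comparison. The authors aligned the demultiplexed reads to GRCm38/mm10 with Bowtie2 in the HTGTS pipeline, filtered them and deposited a table per library with 1 row per junction; these tables hold other values, namely positions of bait and prey in genome and read, without normalization. Repeated junctions of 1 position were kept. Microhomology is the overlap of bait and prey in the read, 0 to 10 bp, at junctions more than 1 Mb from the cut. Density is per 1000 junctions on other chromosomes per Mb. RDC names, classes and positions came from the study's supplement, and 1 Mb windows were centred on them. Genes are those of GENCODE M21, and sequences come from the RefSeq copy of GRCm38. The members and the lists were chosen with earlier results of these data known, and the named RDCs are those without overlap (at most 12, by difference), those with most junctions, those on chromosome 12 and those the study names; members of the gene lists may be named within their list. One locus is not reported here. Differences of group means were tested over libraries by exact permutation (two-sided), with code tested on simulated data. Alternatives were other windows, gene bodies, each position once, other totals, other distance limits, a median, each library left out and replicate numbers as blocks; leaving out the recurrent sites was added after seeing the data. Python 3.11.15, NumPy 2.4.6, pandas 2.3.3, SciPy 1.17.1 and Matplotlib 3.10.9 were used.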

Additional observations from a re-analysis of the deposited data

Results flagged for a closer look

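For the difference of aphidicolin effects with and without ART558, 6 of 26 measures had an unadjusted exact permutation p under 0.05 (chromosome 12 bait). Labels were exchanged within the 2 settings (120 arrangements), and each of the 6 had an adjusted p of 0.144. That exchange assumes no aphidicolin effect in either setting, so its p does not test whether the 2 effects are equal. The values given are the effect with ART558 less the effect without. Inverted junctions within 1 Mb past the break gave 3.40 percentage points (p = 0.0167 by the exact permutation test). They were 4.16% and 4.64% with aphidicolin alone and 7.09% and 8.202% with DMSO, against under 0.5% in all 6 libraries with ART558. Direct joins gave -6.80 percentage points (p = 0.0333, exact permutation), with -2.21 under ART558 and 4.60 without. Microhomology of 1 bp gave -2.19 percentage points (p = 0.0333, exact permutation), and that of 5 to 10 bp gave 3.67 (p = 0.0333, exact permutation). Mean microhomology length gave 0.460 bp (p = 0.0167, exact permutation) and mean bait length 8.07 bp (p = 0.0167, exact permutation). The aphidicolin plus ART558 libraries alone lie on their run, and its part in these values was not tested.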

How the results depend on the processing

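Of the 26 measures, 20 kept their direction under every alternative tried. In the other 6, 14 of 288 settings turned the direction, all in measures whose groups overlap under the main settings. TTR density differed by 0.0053 JPTM in 0.5 Mb windows and by 0.0504 per 1000 of all junctions (-0.0317 to 0.0227 with 1 library left out), and non-RDC density by 0.0444 per 1000 of all junctions. TTR density over gene bodies kept its direction and differed by -0.0819 JPTM, without overlap (exact permutation p = 0.1). Within 1 Mb of the break, direct joins differed by 0.939, microhomology of 2 to 4 bp by -1.27, insertions of 10 bp or more by 3.25 and losses of 20 bp or more by -1.60 percentage points. Microhomology of 2 to 4 bp gave -0.0451 with insertions in the total (-0.278 to 1.07 with 1 library left out), and insertions of 10 bp or more 0.0698 with each position once (-0.433 to 0.193 with 1 left out). RDCs above numbered 6 in 0.5 Mb windows (3.31% of tile centres of that width) and 14 to 19 with 1 library left out (19 without ART558 replicate 2), and RDCs below 7 to 9, where by construction fewer libraries make non-overlap more common (8.09% to 10.6% of tiles above and 8.50% to 10.7% below). Over the baits, leaving out 1 library gave 8.80 to 14.0 percentage points for other chromosomes (p above 0.05 without chromosome 6 aphidicolin plus ART558 replicate 3, chromosome 6 ART558 replicate 1 or 3, or chromosome 8 aphidicolin plus ART558 replicate 2 or 3) and -0.124 to 1.12 bp for bait length at RDCs (turned without chromosome 6 ART558 replicate 1). Keeping the chromosome 8 aphidicolin plus ART558 library of 949 junctions, an alternative chosen after seeing the data, gave 8.66 percentage points for other chromosomes (exact permutation p = 0.0743). Otherwise the cause was not tested.

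Same-numbered libraries did not deviate together (r of -0.0308, -0.0249 and -0.0228), so the numbers pair nothing. With the replicate number as a block the differences of the chromosome 12 bait stay as they are, with a smallest exact permutation p of 0.25. With the block over chromosomes 6 and 12, CTR density gave 0.175 JPTM (p = 0.0625, exact permutation), other chromosomes 7.53 percentage points (p = 0.219, exact permutation) and mean bait length 1.44 bp. With the block, the difference of effects with and without ART558 was 8.07 bp for bait length and 0.460 bp for microhomology (p = 0.0625 each, exact permutation). That p does not test equal effects either. Few junctions per RDC limit the values of single loci.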

Other observations

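With the chromosome 12 bait, junctions with more than 10 bp of microhomology made up 2.79% to 5.99% of those more than 1 Mb from the cut in the 6 libraries with ART558, and 0.649% to 1.32% with the chromosome 6 bait in the same 2 treatments. The 12 RDCs whose aphidicolin plus ART558 libraries lay above with chromosome 12 had a higher mean density with aphidicolin plus ART558 in 9 of 12 with the chromosome 6 bait, against 42 of 79 other RDCs, and in 5 of 12 with the chromosome 8 bait, against 56 of 82. With chromosome 6, on which Sox5 lies, 3 of the 4 below could be counted, and 2 were higher against 49 of 88 other RDCs. With chromosome 8 all 4 could be counted, and 2 were higher against 59 of 90. With chromosome 6, deletions of 10 kb to 1 Mb were 1.154%, 1.26% and 0.880% with aphidicolin plus ART558 and 0.296%, 0.191% and 0.414% with ART558.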
